A study of Homo sapiens with 120 samples.

Results

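Material H, a titanium dioxide nanopowder labelled with the vendor name Mknano, was compared between its highest and its lowest concentration in HepG2 cells. The comparison took the 5 arrays labelled High, from flasks exposed to 30 µg/mL, against the 4 arrays labelled Low, from flasks exposed to 0.3 µg/mL, which is 9 of the 120 arrays of the series. Both groups held the same cell line and the same powder for 72 h, so the comparison addresses concentration without use of the untreated flasks. HepG2 is a human hepatocellular carcinoma line, here at passage 10 to 20, and all flasks were plated at 40000 cells per cm2 and grown for 48 h before exposure. Other arrays of the series covered H at 3 µg/mL (5 arrays), 8 controls, and 7 other materials coded A, B, C, D, I, L and M at 0.3, 3 and 30 µg/mL. Each flask gave total RNA for 1 Illumina HT-12 v4 array, and the values are deposited intensities, given below as log2 intensity. The number of arrays limits the precision of every value, and the normalized arrays share 1 distribution, so a change is relative to the other genes of the same array.

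Titanium dioxide is a poorly soluble oxide, and cells in culture take up such particles mainly by endocytosis, which delivers them to lysosomes. Responses usually looked for in liver cells are the NRF2 programme against oxidants, the heat shock and unfolded protein responses, metallothioneins, p53 targets and the acute phase programme of secreted plasma proteins. HepG2 cells keep the secretion of many plasma proteins, while most cytochrome P450 genes are low in them compared with primary hepatocytes.

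The arrays of H at 30 µg/mL did not form 1 group. Leaving out replicates 1 and 2 was planned with earlier results of these data known. On the first principal component of all arrays with a group (38.1% of the variance), replicates 1 and 2 at 30 µg/mL scored -39.4 and -52.5, with 7 arrays of other groups beside them, while the other 110 arrays scored between -7 and 15. Replicates 3, 4 and 5 at 30 µg/mL scored 13.7, 3.1 and 1.3 on it, and the 4 arrays at 0.3 µg/mL scored 3.6, 9.5, 7.9 and 8.5. Each result is therefore given with all 5 arrays and again without replicates 1 and 2 (the pair), which leaves 3 against 4. Genes said to pass both ways passed in these 2 fits. The 7 arrays of other groups beside the pair leave the change of H as it is but enter the spread that all groups share in the fit, so the 3 against 4 were also tested without all 9 arrays apart.

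The second component (13.2% of the variance) separated the 2 concentrations completely. It was 3.2, 1.5, 12.5, 9.6 and 8.7 at 30 µg/mL, against -6.6, -4.6, -8.7 and -5.4 at 0.3 µg/mL. This axis also divided arrays in ways their concentration did not give. Controls 1 to 7 scored -10.2 to -5.3 and control 8, equally untreated, scored 11.7. Replicate 1 of H at 3 µg/mL scored -5.8, on the side of the 0.3 µg/mL arrays, and replicates 2 to 5 scored 3.9, 13, 12.4 and 12.9. Of the 12 arrays of A, I and L at 0.3 µg/mL, 10 were above 0. B, C, D and M stayed below 0 at 0.3 µg/mL (-10.5 to -2.7) and at 30 µg/mL (-16.2 to -2.0). Whatever set this axis lies wholly between the 2 concentrations of H, so it and concentration cannot be told apart in these 9 arrays.

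**Figure D1:**
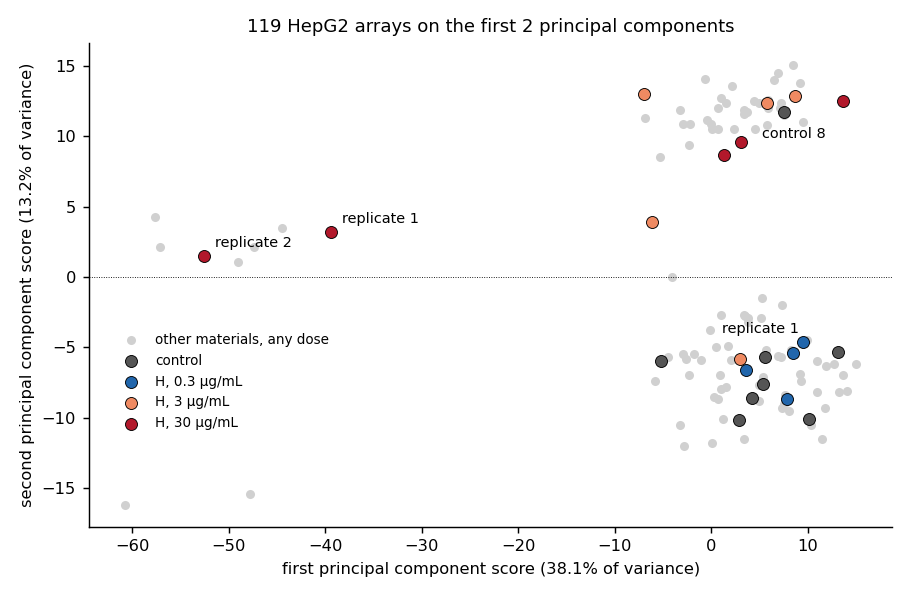
Scores of all arrays with a group on the first and second principal component (axes in score units), 1 point per array, with H at 3 concentrations and the controls coloured and other materials in grey. Replicates 1 and 2 of H at 30 µg/mL lie far to the left at -39.4 and -52.5, and all 5 arrays at 30 µg/mL lie above the dotted line at 0 while all 4 at 0.3 µg/mL lie below it.

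Of 20046 genes, 979 (4.88%) rose and 623 (3.11%) fell at 30 against 0.3 µg/mL past an adjusted p of 0.05, 1602 in all, of which 413 changed by at least 1.5-fold. Without replicates 1 and 2, 206 genes (1.03%) were higher and 190 (0.948%) lower past the same threshold, and 336 genes were called both ways with the same sign, 190 of them higher and 146 lower. Without all 9 arrays apart, the same 3 against 4 arrays of H gave 549 higher (2.74%) and 556 lower (2.77%), 719 of these 1105 being among the 1602 with the same sign, and a fit of the 7 H arrays alone gave 640 higher and 628 lower. The number of calls without the pair was thus 396, 1105 or 1268, depending on which other arrays the fit held. The 1602 became 924, 739 or 2491 when replicate 1, 2 or 3 at 30 µg/mL alone was left out, and 996 or 1015 without replicate 3 or 4 at 0.3 µg/mL. The 5 arrays at 30 µg/mL lay entirely above the 4 at 0.3 µg/mL in 925 genes (4.61%) and entirely below in 766 (3.82%), and 676 and 415 of these also passed the test. The 979 risers had a median log2 change of 0.45 (quartiles 0.32 and 0.61) and the 623 fallers one of -0.40 (quartiles -0.55 and -0.27). In replicates 1 and 2 the median difference from the 0.3 µg/mL mean was 0.64 for the risers and -0.51 for the fallers, against 0.30 and -0.27 in replicates 3 to 5, which is a description, since the pair helped to choose these genes.

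The genes with the largest rises that did not overlap between groups were led by APP, the amyloid precursor protein, and UBR4, an E3 ubiquitin ligase of the N-degron pathway. APP (probe ILMN_2404063) had log2 intensities of 9.91, 9.39, 8.86, 8.44 and 8.82 in replicates 1 to 5 at 30 µg/mL, against 7.61, 7.63, 7.45 and 7.64 at 0.3 µg/mL. UBR4 (probe ILMN_1699226) had 10.58, 10.79, 9.97, 9.79 and 10.05 at 30 µg/mL, against 8.76, 8.89, 8.59 and 8.93 at 0.3 µg/mL. In both genes replicates 1 and 2 were the highest arrays, and replicates 3 to 5 still lay above every array at 0.3 µg/mL. APP rose by 1.5 ± 0.25 on the log2 scale (SE; adjusted p = 4e-05), 2.83-fold, and by 1.13 ± 0.28 (adjusted p = 0.0143) without replicates 1 and 2. The change in UBR4 was 1.44 ± 0.23 (adjusted p = 2.06e-05) with all arrays and 1.14 ± 0.26 (adjusted p = 0.00714) without them. APP has 3 probes on the array, with changes from 0.03 to 1.5, and 2 of them passed the test.

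TRIM71, a developmental ubiquitin ligase that represses messenger RNAs, and CASC3, a core protein of the exon junction complex, behaved like UBR4. TRIM71 (probe ILMN_2225061) had 10.06, 10.06, 9.73, 9.69 and 9.15 at 30 µg/mL, against 8.27, 8.51, 8.54 and 8.17 at 0.3 µg/mL. CASC3 had 10.27, 10.01, 9.41, 9.31 and 9.68 at 30 µg/mL, against 8.54, 8.41, 8.26 and 8.54 at 0.3 µg/mL. The lowest array at 30 µg/mL exceeded the highest at 0.3 µg/mL by a clear margin in each. TRIM71 rose by 1.37 ± 0.21 (adjusted p = 1.57e-05), and by 1.15 ± 0.24 (adjusted p = 0.00341) without replicates 1 and 2, though the other of its 2 probes changed by -0.01. CASC3 rose by 1.30 ± 0.20 (adjusted p = 1.21e-05), and by 1.03 ± 0.22 (adjusted p = 0.00368) without them.

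SORL1, a sorting receptor that binds APP, rose by 1.11 ± 0.16 (adjusted p = 1.05e-05), and by 0.87 ± 0.18 (adjusted p = 0.00341) without replicates 1 and 2. Its values were 9.66, 9.35, 8.96, 8.84 and 8.89 at 30 µg/mL, against 8.12, 8.07, 7.85 and 8.07 at 0.3 µg/mL. CHPF, a chondroitin polymerising factor, DUSP9, a phosphatase of MAP kinases, and ILRUN also passed both ways, with changes of 1.33, 1.19 and 1.12 with all arrays and of 0.92, 0.87 and 0.81 without the pair. Another 4 of the 12 leading risers passed with all arrays and missed the threshold without the pair: PRRC2A (1.37), PLXNB2, a semaphorin receptor (1.22), STIP1, the HSP70 and HSP90 organising cochaperone (1.17), and ATG9A, the lipid scramblase of autophagosome formation (1.17). Their changes without the pair were 0.91, 0.74, 0.72 and 0.65, with adjusted p of 0.0572, 0.233, 0.147 and 0.279. In all 4 the 3 remaining arrays at 30 µg/mL were above the 4 at 0.3 µg/mL, and without all 9 arrays apart all 4 passed at the same changes (adjusted p = 0.00208, 0.00174, 0.00442 and 0.0316). Second probes often did not follow, with changes of 0.02 for SORL1, -0.12 for ILRUN and 0.02 for PLXNB2. Of the 15 leading risers and fallers with more than 1 probe, 1 had every probe past the threshold, PRRC2A.

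Among falling genes the largest change was in KRT18, the type I keratin that pairs with KRT8 in simple epithelia. KRT18 (probe ILMN_1803408) had log2 intensities of 7.42, 7.42, 6.90, 6.91 and 7.85 at 30 µg/mL, against 8.95, 8.90, 8.98 and 8.92 at 0.3 µg/mL. Replicates 1 and 2 sat among the other arrays at 30 µg/mL here, and the fall was -1.64 ± 0.29 (adjusted p = 7.08e-05) with all arrays and -1.72 ± 0.34 (adjusted p = 0.00188) without them. The second KRT18 probe changed by -0.11 and did not pass. KRT8, its partner, went the other way, at 11.32, 11.76, 10.66, 11.21 and 11.31 at 30 µg/mL, against 10.63, 10.56, 10.63 and 10.46 at 0.3 µg/mL. The rise in KRT8 was 0.68 ± 0.18 (adjusted p = 0.0092), and 0.48 ± 0.20 (adjusted p = 0.252) without replicates 1 and 2, with an adjusted p of 0.0493 without all 9 arrays apart. Controls 1 to 7 had 10.68 to 11.29 for KRT8, above every array at 0.3 µg/mL.

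The fall in RPL21P28 was also as large without the pair of arrays. This locus is a ribosomal protein pseudogene, and its probe (ILMN_3283775) may share sequence with the parent gene, so the source of its signal is uncertain. It had 9.57, 9.97, 8.87, 8.72 and 10.13 at 30 µg/mL, against 11.10, 10.87, 10.85 and 10.80 at 0.3 µg/mL, a change of -1.45 ± 0.38 (adjusted p = 0.00685), and of -1.67 ± 0.43 (adjusted p = 0.019) without replicates 1 and 2. RBM4, a splicing regulator, fell by 1.03 (adjusted p = 0.000216) with all arrays and by 1.06 (adjusted p = 0.00388) without the pair, and 3 of its 6 probes passed. PSMC4, an ATPase of the proteasome base, had 9.36, 9.22, 8.38, 8.12 and 7.67 at 30 µg/mL, against 9.44, 9.49, 9.49 and 9.53 at 0.3 µg/mL. In PSMC4 replicates 1 and 2 were the arrays nearest to 0.3 µg/mL, and its change was -0.94 ± 0.30 (adjusted p = 0.0351) with them and -1.43 ± 0.33 (adjusted p = 0.00682) without. EIF3CL, CNPY3 and ITM2B, an inhibitor of APP processing, fell both ways, by 0.94, 0.84 and 0.80 with all arrays and by 1.23, 0.87 and 0.69 without the pair. The second probes of CNPY3 and ITM2B changed by 0.05 and 0.04. EIF3CL is a near-identical copy of EIF3C, so its probe may report either gene.

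The remaining 6 of the 14 leading fallers missed the threshold without the pair and passed without all 9 arrays apart, at smaller changes than with all arrays. CHP1, a calcineurin-like calcium-binding protein, had 7.61, 7.40, 9.72, 9.45 and 9.40 at 30 µg/mL, against 10.33, 10.22, 10.16 and 10.18 at 0.3 µg/mL. KHDRBS1, the RNA-binding protein SAM68, had 9.69, 9.66, 11.06, 11.15 and 11.12 at 30 µg/mL, against 11.62, 11.51, 11.48 and 11.48 at 0.3 µg/mL. In both genes replicates 1 and 2 lay more than 1 log2 unit below replicates 3 to 5, which in turn lay below 0.3 µg/mL. Controls 1 to 7 had 9.58 to 10.12 for CHP1, below every array at 0.3 µg/mL. CHP1 fell by 1.51 ± 0.36 (adjusted p = 0.00272), and its change was -0.70 ± 0.37 (adjusted p = 0.441) without the pair and -0.70 ± 0.12 (adjusted p = 0.000271) without the 9 arrays. KHDRBS1 fell by 0.99 (adjusted p = 0.0317), and its change of -0.41 had an adjusted p of 0.69 without the pair and 0.00133 without the 9 arrays. POLR2J3, NFX1, the ribosomal protein gene RPL23A and the lipid droplet coat gene PLIN3 followed the same course, at -1.29, -1.03, -0.94 and -0.94 with all arrays and -0.69, -0.39, -0.44 and -0.40 without the pair, with adjusted p of 0.256, 0.684, 0.413 and 0.6 there and of 0.00262, 0.0107, 0.0185 and 0.037 without the 9 arrays. The second probes of POLR2J3 and NFX1 changed by -0.01 and 0.10.

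**Figure D2:**
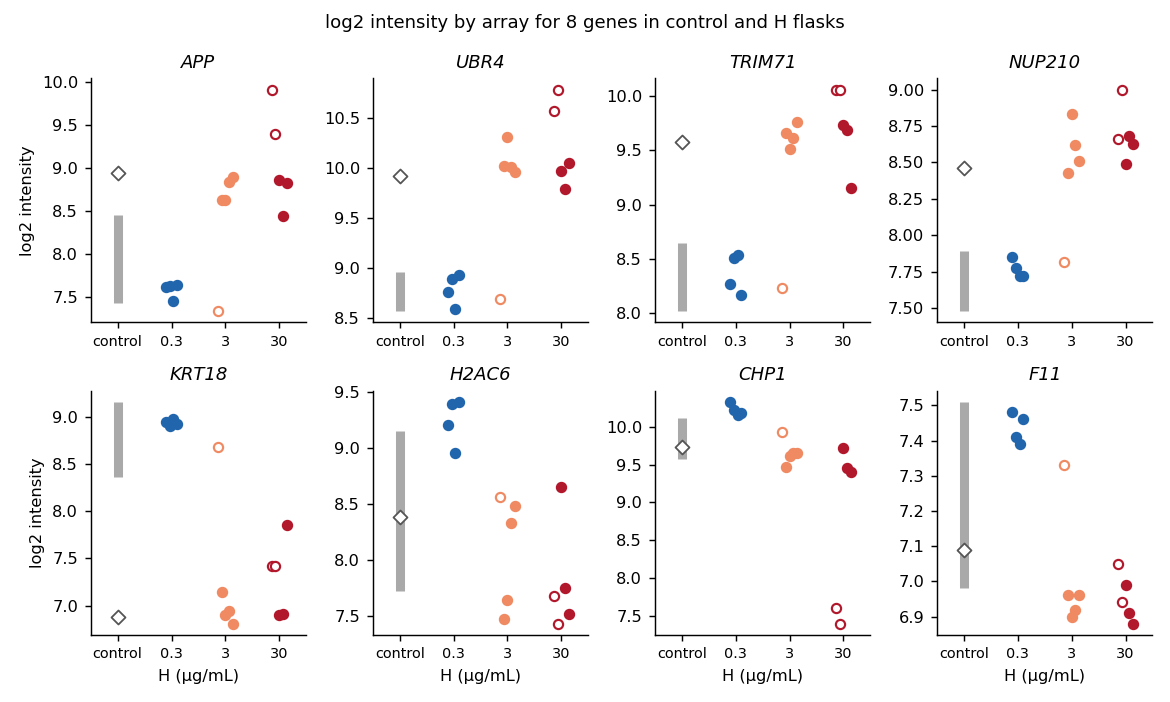
Log2 intensity (vertical axes, which do not start at 0) of 8 genes by concentration of H, 1 circle per array, with open circles for replicates 1 and 2 at 30 µg/mL and replicate 1 at 3 µg/mL. The grey bar spans controls 1 to 7 and the diamond is control 8. APP, UBR4, TRIM71 and NUP210 are higher and KRT18, H2AC6, CHP1 and F11 lower in every array at 30 than at 0.3 µg/mL, and in CHP1 the open circles at 7.61 and 7.40 lie far below the rest.

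Arrays outside the comparison took sides in these same genes. KRT18 was 8.68 in replicate 1 of H at 3 µg/mL, and 7.14, 6.90, 6.94 and 6.81 in replicates 2 to 5, while control 8 had 6.88 and controls 1 to 7 ranged from 8.36 to 9.16. UBR4 was 8.69 in replicate 1 at 3 µg/mL and 10.02, 10.31, 10.01 and 9.96 in replicates 2 to 5, with 9.92 in control 8 and 8.57 to 8.96 in controls 1 to 7. Both genes thus had, in an untreated flask, the level seen at 30 µg/mL. For all 12 leading risers control 8 lay above the range of controls 1 to 7, and for 9 of the 14 leading fallers it lay below. Replicate 1 at 3 µg/mL was nearer to the 0.3 µg/mL mean than to replicates 3 to 5 at 30 µg/mL in 12 of the 12 risers and 11 of the 14 fallers.

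The same held across the 336 genes called both with and without replicates 1 and 2. Their median difference from the 0.3 µg/mL mean was 0.44 for the 190 risers and -0.40 for the 146 fallers in control 8, against 0 to 0.12 and -0.27 to -0.07 in controls 1 to 7. Control 8 lay outside the range of controls 1 to 7 on the side of the 30 µg/mL arrays in 219 of the 336 (65.2%), compared with 17.9% of all genes. The 12 arrays of A, I and L at 0.3 µg/mL, the lowest exposure, had a median of 0.55 for the risers (0.01 to 0.71) and -0.44 for the fallers (-0.52 to -0.10). B, C, D and M at 30 µg/mL, the highest exposure, had a median of 0.13 (0.01 to 0.36) and -0.20 (-0.31 to -0.12). Genes that rose or fell with H were thus at the 30 µg/mL level in some arrays without it or at the lowest exposure. In B, C, D and M at 30 µg/mL the median of the risers was near the 0.3 µg/mL level of H, and that of the fallers lay between the 2 levels. Relative to controls 1 to 7, the arrays of H at 0.3 µg/mL themselves had a median difference of 0.15 in the 146 fallers and -0.05 in the 190 risers. The part of this division of arrays in the change between the 2 concentrations of H was not tested.

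**Figure D3:**
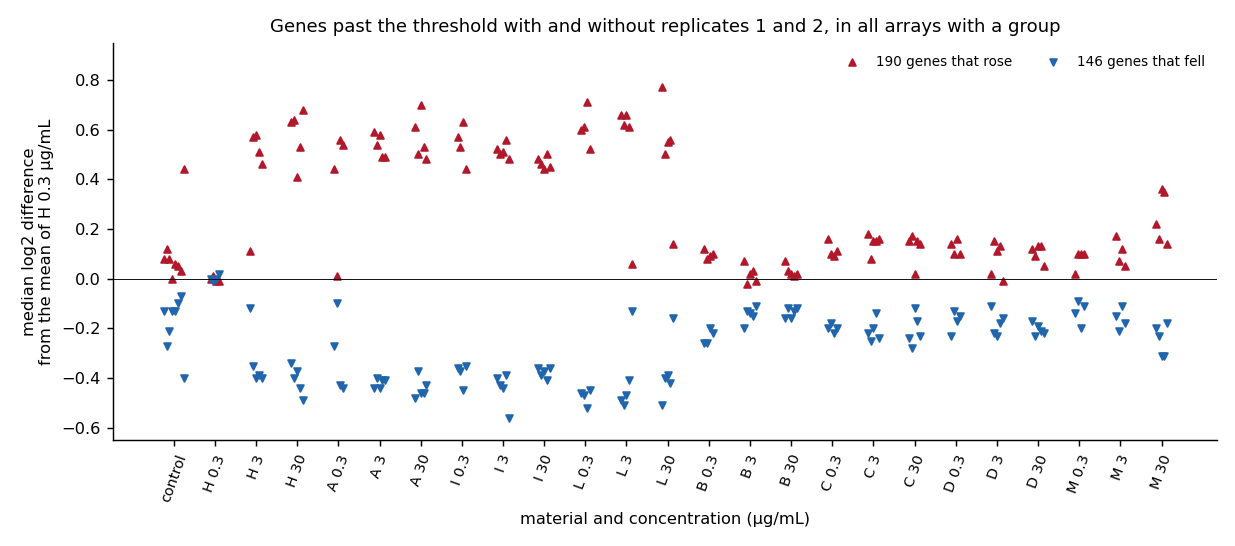
Median log2 difference from the mean of H at 0.3 µg/mL (vertical axis) over the 190 risers and 146 fallers that passed with and without replicates 1 and 2, 1 pair of triangles per array, by material and concentration (horizontal axis, µg/mL). Arrays of H at 30 µg/mL sit at 0.41 to 0.68 and -0.49 to -0.34, control 8 sits at 0.44 and -0.40, and A, I and L sit near those levels at 0.3 µg/mL already.

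At 3 against 0.3 µg/mL of H, 192 genes (0.958%) were higher and 149 (0.743%) lower past the threshold. This comparison shares the 4 arrays at 0.3 µg/mL with the one above, so the values are set side by side only. The rises at 3 and at 30 µg/mL were 0.88 and 1.5 for APP, 1.01 and 1.44 for UBR4, 0.98 and 1.37 for TRIM71, and 0.96 and 1.30 for CASC3. Without the pair the rises of these 4 at 30 µg/mL were 1.13, 1.14, 1.15 and 1.03. APP was 8.62 to 8.89 in replicates 2 to 5 at 3 µg/mL and 8.44 to 8.86 in replicates 3 to 5 at 30 µg/mL. For UBR4 these ranges were 9.96 to 10.31 and 9.79 to 10.05. KRT18 had -1.65 at 3 and -1.64 at 30 µg/mL, and H2AC6 had -1.14 and -1.43, with -1.72 and -1.26 at 30 µg/mL without the pair. Of the 26 leading genes 14 passed at 3 µg/mL, with 8 of the 12 risers and 6 of the 14 fallers. Since replicate 1 at 3 µg/mL stood on the other side of the remaining 4, the mean at 3 µg/mL lay between 2 levels of arrays in most of them.

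Genes whose change with H differed from the mean change of the other 7 materials between the same concentrations numbered 962 (4.8%), tested as the difference itself, with 615 positive and 347 negative differences. Of these, 916 were also among the 1602. UBR4 changed by 1.44 with H against 0.16 in the mean of the others, and the difference was 1.28 ± 0.25 (adjusted p = 0.000528). The difference was -1.82 (adjusted p = 0.000118) for KRT18, which changed by 0.18 in the mean of the other materials, and -1.36 (adjusted p = 0.000386) for H2AC6. All 12 leading risers and 11 of the 14 leading fallers passed this test, which is a description, since they were chosen for a large change with H. KHDRBS1, PLIN3 and PSMC4 did not pass (adjusted p = 0.0922, 0.0858 and 0.0778). The number of such genes was 217 without the pair and 836 (430 positive, 406 negative) without all 9 arrays apart, where KHDRBS1 and PSMC4 passed (adjusted p = 0.00214 and 0.00237) and PLIN3 and RPL23A did not (adjusted p = 0.0928 and 0.212). On the second component 10 of the 12 arrays of A, I and L at 0.3 µg/mL and 14 of their 15 at 30 µg/mL were above 0. B, C, D and M had none there. The other 7 materials were thus split, with A, I and L mostly above 0 and B, C, D and M below it, at both concentrations.

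The counts of list members below are best read against expressed genes, since most listed genes lie above the median level of all genes. Among the 10023 genes above it, 9.2% were higher and 5.43% lower past the threshold with all arrays, 2.03% and 1.71% without the pair, and 5.31% and 5.11% without all 9 arrays apart.

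Histone genes gave 3 that fell and 0 that rose of 16 measured, 15 of which lay above the median level (5.43% lower there). Most of the list are core histone genes of the clusters, which encode the proteins packed onto newly made DNA and whose messenger RNAs end in a stem-loop in place of a poly(A) tail. It also holds the linker histone genes H1-2 and H1-4 and, from outside the clusters, the variant genes H2AX, H2AZ1 and H2AZ2. The same 3 passed without the pair, and without all 9 arrays apart H2AC18 (-0.94) and H2BC12 (-0.61) passed as well. The list had a median change of -0.25 with all arrays and -0.22 without, against 0.01 and 0 for all genes. The 3 were H2AC6, H2BC5 and H4C8, genes for H2A, H2B and H4. They were picked because they passed in this comparison, and whether they share control was not tested. The 150 bases upstream of their starts are shown as in the RefSeq promoter table (build GRCh38.p14, chromosome 6). Capitals show matches on either strand to CCAAT, the box bound by NF-Y, and to TATAAA, recognised by the TATA-binding protein. On the opposite strand CCAAT reads ATTGG, and the strings do not overlap each other in these windows.
H2AC6 (chr6:26124022-26124171, plus strand): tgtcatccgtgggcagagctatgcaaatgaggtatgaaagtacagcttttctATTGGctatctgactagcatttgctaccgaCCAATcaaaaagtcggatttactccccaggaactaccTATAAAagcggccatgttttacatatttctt
H2BC5 (chr6:26157971-26158120, plus strand): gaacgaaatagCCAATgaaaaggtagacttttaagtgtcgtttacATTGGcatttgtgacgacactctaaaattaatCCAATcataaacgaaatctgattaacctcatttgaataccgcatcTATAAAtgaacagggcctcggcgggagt
H4C8 (chr6:26285535-26285684, minus strand): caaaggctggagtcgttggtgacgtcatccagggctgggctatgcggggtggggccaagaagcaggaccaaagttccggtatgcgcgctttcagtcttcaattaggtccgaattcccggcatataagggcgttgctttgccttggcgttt

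CCAAT occurred 2 times in the H2AC6 window and 3 times in that of H2BC5, each with 1 TATAAA, which began 31 bases before the start of H2AC6 and 28 before that of H2BC5. The H4C8 window held neither string. Over all 27305 promoters in the table, windows of the same length held CCAAT in 24.4% and TATAAA in 7.0%, and among the 15 listed histone genes with an entry in 86.7% and 60.0%. H2AC6 (probe ILMN_1792689) had log2 intensities of 7.68, 7.43, 8.65, 7.75 and 7.52 at 30 µg/mL, against 9.20, 9.39, 8.95 and 9.41 at 0.3 µg/mL. Controls 1 to 7 spanned 7.72 to 9.15 for H2AC6, with a mean of 8.5. Replicates 1, 2 and 4 at 0.3 µg/mL lay above that range. H2BC5 had 8.54, 8.47, 8.58, 8.04 and 7.76 at 30 µg/mL, against 8.97, 8.97, 8.61 and 8.95 at 0.3 µg/mL. H4C8 (probe ILMN_1751120) had 6.65, 6.71, 6.95, 6.83 and 6.72 at 30 µg/mL, against 7.22, 7.28, 7.19 and 7.25 at 0.3 µg/mL. The groups overlapped in none of the 3, although H2AC6 was high in replicate 3 and H4C8 was close to the array median of 6.62. The changes were -1.43 ± 0.24 (adjusted p = 4e-05), -0.60 ± 0.17 (adjusted p = 0.0157) and -0.46 ± 0.07 (adjusted p = 2.06e-05) for H2AC6, H2BC5 and H4C8, and -1.26, -0.75 and -0.40 without replicates 1 and 2 (adjusted p = 0.0045, 0.0192 and 0.00363).

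Nuclear pore genes held the most members past the threshold of the 37 lists examined. Of 24 measured, 8 were higher and 1 lower with all arrays, 4 higher and 1 lower without the pair, and 7 higher and 2 lower without all 9 arrays apart. Of the 24, 22 lay above the median level, where 9.2% of genes were higher and 5.43% lower with all arrays. The list medians were 0.15 with all arrays and 0.19 without the pair. NUP210, a membrane-spanning nucleoporin, had 8.66, 9.0, 8.49, 8.68 and 8.63 at 30 µg/mL, against 7.85, 7.78, 7.72 and 7.72 at 0.3 µg/mL. NUP93, a scaffold subunit of the inner ring, had 10.12, 10.14, 9.59, 9.69 and 9.99 at 30 µg/mL, against 9.16, 9.20, 9.28 and 9.38 at 0.3 µg/mL. The arrays at 30 µg/mL were close together in NUP210 and more spread in NUP93, with no overlap in either gene. NUP210 rose by 0.93 ± 0.15 (adjusted p = 2.06e-05) and NUP93 by 0.65 ± 0.11 (adjusted p = 4.01e-05), and without replicates 1 and 2 by 0.83 and 0.50 (adjusted p = 0.00277 and 0.0129). NUP214 on the cytoplasmic face (0.59) and NUP153 on the nuclear basket (0.41) also rose both ways. TPR, a basket protein, NUP188, NUP133 and NUP85 rose with all arrays, by 0.78, 0.55, 0.41 and 0.35, and did not pass without the pair. TPR, NUP188 and NUP133 passed without the 9 arrays (adjusted p = 0.0178, 0.0188 and 0.0442) and NUP85 did not (adjusted p = 0.322). NUP50, a mobile basket component, fell by 0.34 with all arrays, and NUP62, at -0.41, passed as lower without the pair and not with all arrays.

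Translation factors gave 3 higher and 0 lower of 20, all above the median level, where 9.2% of genes were higher. EIF4G1, the scaffold of the cap-binding complex, had 10.04, 10.12, 10.01, 10.25 and 10.47 at 30 µg/mL, against 9.26, 9.33, 9.17 and 9.24 at 0.3 µg/mL. It rose by 0.93 ± 0.15 (adjusted p = 3.18e-05), and by 0.99 ± 0.18 (adjusted p = 0.000852) without replicates 1 and 2, with 2 of its 4 probes past the threshold. EIF3B, a subunit of eIF3, rose by 0.51 with all arrays and by 0.43 without the pair (adjusted p = 0.000856 and 0.0439), and EIF4B, a helicase cofactor, by 0.64 with all arrays (adjusted p = 0.00184) with 0.42 without the pair (adjusted p = 0.194, and 0.0415 without the 9 arrays). Controls 1 to 7 had 11.81 to 12.1 for EIF3B, above every array at 0.3 µg/mL. Aminoacyl-tRNA synthetases gave 2 higher and 0 lower of 18, MARS1 (0.34) and FARSB (0.47), and neither passed without the pair or without the 9 arrays.

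The medians of mitochondrial ribosomal proteins and of oxidative phosphorylation genes were lowest in replicates 1 and 2. Mitochondrial ribosomal proteins gave 0 higher and 4 lower of 23, with a list median of -0.31 with all arrays and -0.07 without the pair. The list median by array was -0.46 and -0.62 in replicates 1 and 2, and -0.08, -0.05 and -0.08 in replicates 3 to 5. Oxidative phosphorylation gave 2 higher and 6 lower of 34, with medians by array of -0.39, -0.46, -0.11, -0.11 and -0.11. Cytosolic ribosomal proteins gave 1 higher and 3 lower of 33. In the fit without the pair that kept the other 7 arrays apart, 1 member of these 3 lists passed, SDHC, a membrane anchor of succinate dehydrogenase, which rose by 0.71 with all arrays and 0.73 without (adjusted p = 0.000106 and 0.00268), although its second probe changed by -0.28. ATP5MC3, an ATP synthase ring subunit (-0.39), RPL19 (-0.58), RPL3 (-0.42), MRPS30 (-0.57) and MRPS18C (-0.59) had changes of -0.28, -0.35, -0.33, -0.35 and -0.23 without the pair. The first 4 of these 5 passed at these changes without all 9 arrays apart (adjusted p = 0.00206, 0.00107, 0.0121 and 0.0147), as did UQCRB (-0.64) and RPS3 (-0.23), and MRPS18C did not (adjusted p = 0.334).

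Some members of the stress lists passed the threshold. Among NRF2 targets 2 of 17 rose and 0 fell, with 9.2% of genes above the median level higher and 5.43% lower, and the 2 also passed without the pair. SRXN1, which reduces overoxidised peroxiredoxins, had 9.78, 9.55, 8.97, 9.37 and 9.56 at 30 µg/mL, against 8.64, 8.79, 8.93 and 8.67 at 0.3 µg/mL. TXNRD1, cytosolic thioredoxin reductase, had 9.04, 9.13, 8.70, 8.85 and 9.48 at 30 µg/mL, against 8.24, 8.38, 8.43 and 8.46 at 0.3 µg/mL. The lowest array at 30 µg/mL cleared the highest at 0.3 µg/mL by a small margin in SRXN1 and a wider one in TXNRD1. SRXN1 rose by 0.69 and 0.54 (adjusted p = 0.000222 and 0.0323) and TXNRD1 by 0.67 and 0.64 (adjusted p = 0.00181 and 0.0306) with and without replicates 1 and 2. HMOX1, haem oxygenase, had 8.40, 8.42, 7.68, 7.88 and 7.92 at 30 µg/mL, against 8.08, 7.96, 8.15 and 7.77 at 0.3 µg/mL, a difference of 0.07 (adjusted p = 0.826). NQO1, a quinone reductase, differed by 0.13 (adjusted p = 0.62) with all arrays. Without the pair its difference was 0.33, with the 3 arrays above the 4, at an adjusted p of 0.295, and of 0.0109 without all 9 arrays apart, where GCLM, a glutathione synthesis subunit, also passed, as lower (-0.44). In SRXN1, control 8 had 9.17 and controls 1 to 7 had 8.63 to 8.89, and in TXNRD1 it had 9.0 against 8.23 to 8.72.

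Some heat shock and endoplasmic reticulum chaperones passed the threshold, in both directions. Above the median level 9.2% of genes were higher and 5.43% lower with all arrays. Of 17 cytosolic heat shock genes 2 rose, STIP1 and HSP90AB1, the constitutive HSP90 (0.64), and 2 fell, HSPA1A, the inducible HSP70 (-0.81), and HSF1, the heat shock transcription factor (-0.23). HSF1 among these 4 passed without the pair (-0.24, adjusted p = 0.0157), and HSF1, STIP1 and HSP90AB1 passed without all 9 arrays apart. HSF1 was at 6.54, 6.53, 6.46, 6.54 and 6.53 at 30 µg/mL against 6.78, 6.76, 6.77 and 6.69 at 0.3 µg/mL, near the array median. BAG3, an HSP70 cochaperone induced by heat shock, passed as lower without the pair and without the 9 arrays (-0.66) but not with all arrays (-0.25), and HSPA1B (-0.52) passed without the 9 arrays. HSPA1A was 8.11, 7.13, 8.96, 8.59 and 8.19 at 30 µg/mL, against 9.0, 9.21, 8.82 and 9.0 at 0.3 µg/mL, so the groups overlapped. Among 19 unfolded protein response genes HYOU1 rose by 0.83 (adjusted p = 0.0413) and HSPA5, the lumenal chaperone BiP, fell by 0.41 (adjusted p = 0.0382), and without the pair HSPA5 missed the threshold (-0.51, adjusted p = 0.0526) and HYOU1 had 0.25. Without the 9 arrays HSPA5 passed (adjusted p = 0.0233), with ATF6 (-0.32) and XBP1 (-0.30), and HYOU1 did not. For HSPA5 the mean of controls 1 to 7 was 8.62, against 8.55 at 30 and 8.96 at 0.3 µg/mL. DDIT3, the transcription factor CHOP, differed by 0.06 (adjusted p = 0.87).

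Metallothioneins, which bind zinc and copper, gave 1 higher and 0 lower of 8. For them and the ATF4 genes below, the shares among genes above the median level were 9.2% higher and 5.43% lower. MT2A had 13.28, 13.45, 12.30, 11.91 and 12.59 at 30 µg/mL, against 12.18, 12.26, 11.74 and 12.26 at 0.3 µg/mL, and rose by 0.60 (adjusted p = 0.0468), with 0.16 (adjusted p = 0.837) without the pair. Its values at the 2 concentrations overlapped, and replicates 1 and 2 were the highest. Controls 1 to 7 had 12.4 to 12.92 for MT2A, above every array at 0.3 µg/mL. MT1X had 10.34, 11.04, 9.39, 9.21 and 9.69 at 30 µg/mL, against 10.22, 10.13, 9.63 and 10.22 at 0.3 µg/mL, a difference of -0.12 (adjusted p = 0.853). Without the pair MT1X differed by -0.62 (adjusted p = 0.299), and this passed as lower without all 9 arrays apart (adjusted p = 0.0166), where the groups still overlapped. Of 20 ATF4 and amino acid stress genes 1 was higher, SLC7A5, a subunit of the large neutral amino acid transporter (0.55, with 0.21 without the pair), while without the 9 arrays SESN2 (0.44) was higher and PSPH (-0.78) lower.

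Among p53 targets 1 of 18 was higher and 4 lower, with 9.2% and 5.43% among genes above the median level. TIGAR, a fructose bisphosphatase, had 7.56, 7.40, 7.43, 7.41 and 7.5 at 30 µg/mL, against 7.77, 7.90, 7.76 and 7.93 at 0.3 µg/mL, and fell by 0.38 and 0.39 with and without replicates 1 and 2 (adjusted p = 0.000718 and 0.00842). BAX, a pore-forming death effector, had -0.66 with all arrays and without the pair, and passed with all arrays (adjusted p = 0.00809), missed the threshold without the pair (0.0584) and passed without the 9 arrays (0.0334), and its 3 probes changed by between -0.66 and 0.29. GADD45A and RRM2B fell with all arrays and XPC rose, and none of the 3 passed without the pair or without the 9 arrays. CDKN1A, the cell cycle inhibitor p21, differed by 0.18 (adjusted p = 0.589), and GDF15, a secreted stress cytokine, by 0.22 (adjusted p = 0.42). Among the 20 BCL2 family members and caspases 3 were higher and 3 lower. Of these BMF, a BH3-only protein, passed both ways, at 0.50 and 0.39, while MCL1 (0.42), BOK (0.63), CASP8 (-0.24) and BID (-0.26) passed with all arrays and neither without the pair nor without the 9 arrays.

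Mitotic genes stood at different levels among the arrays at 30 µg/mL. The median of 25 G2 and mitosis genes stood at -0.11, -0.24, -0.06, 0.42 and 0.71 relative to 0.3 µg/mL in replicates 1 to 5 at 30 µg/mL. With all arrays 2 were higher, TPX2, a spindle assembly factor, and CENPF, a kinetochore protein, and without the pair CENPE (0.44) joined them, and without the 9 arrays NEK2 (0.43) as well. TPX2 had 8.17, 8.27, 8.04, 8.40 and 8.82 at 30 µg/mL, against 7.77, 7.66, 7.97 and 7.56 at 0.3 µg/mL, and rose by 0.60 and 0.68 with and without the pair (adjusted p = 0.00275 and 0.0101). CENPF had 7.39, 7.45, 7.61, 7.84 and 8.35 at 30 µg/mL, against 7.18, 7.22, 7.52 and 7.16 at 0.3 µg/mL, and rose by 0.46 and 0.67 (adjusted p = 0.0393 and 0.0143). Its lower arrays at 30 µg/mL overlapped the 0.3 µg/mL arrays. Controls 1 to 7 had 7.17 to 7.98 for CENPF, with a mean of 7.72, against 7.73 at 30 and 7.27 at 0.3 µg/mL. For TPX2 they had 7.79 to 8.39, and their mean of 8.08 lay above every array at 0.3 µg/mL. Replication genes gave 2 higher and 0 lower of 24, the helicase subunits MCM2 (0.59) and MCM4 (0.44), and neither passed without the pair, while MCM2 passed without the 9 arrays (adjusted p = 0.034).

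Uptake genes gave 5 higher and 0 lower of 22, the list of endocytosis and particle uptake, against 9.2% and 5.43% of genes above the median level, where 18 of the 22 lay, with a median of 0.14 with all arrays and 0.06 without the pair. AP2B1, a subunit of the clathrin adaptor AP-2, had 8.28, 8.24, 7.59, 7.33 and 7.71 at 30 µg/mL, against 7.11, 7.00, 6.78 and 6.92 at 0.3 µg/mL. It rose by 0.87 with all arrays and by 0.59 without the pair (adjusted p = 4.01e-05 and 0.0272), and both its probes passed. SCARB1, the HDL receptor (0.65), RAB5C of early endosomes (0.62), the clathrin light chain CLTA (0.41) and dynamin 2, DNM2 (0.32), rose with all arrays and passed neither without the pair nor without the 9 arrays. In this last setting TFRC, the transferrin receptor (0.56), and RAB7A of late endosomes (-0.25) passed. Lysosomal genes gave 1 higher and 1 lower of 20, the carboxypeptidase CTSA (0.56) and the tripeptidyl peptidase TPP1 (-0.37). TPP1 passed both ways, with -0.49 without the pair (adjusted p = 0.0384 and 0.0289), and its 5 and 4 arrays overlapped at 9.43, 9.69, 9.33, 9.31 and 9.14 at 30 µg/mL, against 9.84, 9.70, 9.65 and 9.79 at 0.3 µg/mL. Of 21 autophagy genes ATG9A and ULK1, a kinase that starts autophagy (0.35), were higher and BECN1 (-0.75) lower with all arrays. BECN1 was 7.06 in replicate 2 and 8.23 to 8.62 in the other 4 arrays at 30 µg/mL, and missed the threshold without the pair (-0.40, adjusted p = 0.498), while BECN1 (adjusted p = 0.0254) and ATG9A passed without the 9 arrays.

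Some secreted liver proteins passed the threshold, in both directions. SERPINA3, an acute phase serpin, had 14, 14.03, 13.94, 13.83 and 13.96 at 30 µg/mL, against 13.64, 13.73, 13.59 and 13.54 at 0.3 µg/mL. It rose by 0.32 and 0.28 with and without the pair (adjusted p = 0.000252 and 0.0184). Controls 1 to 7 had 13.73 to 14.05 for SERPINA3, the level of the 30 µg/mL arrays, and the 0.3 µg/mL arrays lay at or below the lowest of them. CFB, complement factor B, rose by 0.54 and 0.49 (adjusted p = 0.0023 and 0.0494), and HAMP, the iron hormone hepcidin, by 0.68 with all arrays (adjusted p = 0.000902), with 0.46 without the pair (adjusted p = 0.128, and 0.0118 without the 9 arrays). HAMP was 10.57 to 11.51 in controls 1 to 7, and 10.31 to 10.57 at 0.3 µg/mL. SERPINA1, antitrypsin, fell by 0.49 with all arrays, at 12.95 and 12.66 in replicates 1 and 2 and 13.49 to 13.60 in the other 3, against 13.69 to 13.80 at 0.3 µg/mL. Acute phase genes thus counted 3 higher and 1 lower of 24, 2 higher without the pair and 3 higher without the 9 arrays. F11, coagulation factor XI, had 7.05, 6.94, 6.99, 6.91 and 6.88 at 30 µg/mL, against 7.48, 7.41, 7.39 and 7.46 at 0.3 µg/mL, and fell by 0.48 and 0.51 (adjusted p = 2.06e-05 and 0.0008) on 1 of its 2 probes. Coagulation and complement genes gave 1 higher and 2 lower of 24, the others being F5 (0.45) and MBL2 (-0.21), and apolipoproteins gave 1 higher of 13, APOA5 (0.34), and these 3 passed neither without the pair nor without the 9 arrays, where APOM passed as lower (-0.44). ALB, albumin, differed by 0.15 (adjusted p = 0.166) and AFP, alpha-fetoprotein, by 0.15 (adjusted p = 0.689). Without the pair the differences were 0.22 and 0.38, and ALB passed without the 9 arrays (adjusted p = 0.0405) and AFP did not (adjusted p = 0.0692).

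Liver transcription factors gave 3 higher and 1 lower of 16, against 9.2% and 5.43% of genes above the median level, where 12 of the 16 lay. CEBPA, a hepatocyte differentiation factor, rose by 0.77 and 0.85 with and without the pair (adjusted p = 0.00653 and 0.023), though replicate 3 at 0.3 µg/mL, at 10.17, lay within the 30 µg/mL range of 9.91 to 10.86. ONECUT1 (0.32) and ONECUT2 (0.30) rose and FOXA1 (-0.47) fell with all arrays and did not pass without the pair, while ONECUT2 passed without the 9 arrays (0.33, adjusted p = 0.0404). Of 20 cytochrome P450 genes 0 were higher and 2 lower, CYP2J2, an epoxygenase (-0.27 both ways, adjusted p = 0.00688 and 0.0252), and CYP4F3 (-0.49 with all arrays, and -0.38 without the 9 arrays, adjusted p = 0.0352). The list median was at 6.61 at 30 µg/mL and 6.62 at 0.3 µg/mL, the level of the array median, and 10 of the 20 lay below it at 0.3 µg/mL. HK2, hexokinase 2, had 10.84, 10.65, 10.26, 10.02 and 10.66 at 30 µg/mL, against 9.55, 9.73, 9.53 and 9.58 at 0.3 µg/mL. It rose by 0.89 and 0.72 (adjusted p = 4.01e-05 and 0.0092), while its second probe changed by -0.23, and NDRG1, a hypoxia-induced gene, fell by 0.40 and 0.48 (adjusted p = 0.0228 and 0.0435). PGAM1, phosphoglycerate mutase, fell with all arrays (-0.78) on both its probes and passed without the 9 arrays (-0.65), so glycolysis and hypoxia genes counted 1 higher and 2 lower of 22.

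The epithelial and matrix genes gave mixed directions. Of 17 keratin and junction genes 3 were higher and 1 lower. TJP1, a tight junction scaffold, rose by 0.46 and 0.51 with and without the pair (adjusted p = 0.00951 and 0.0379), and CTNNA1, alpha-catenin, by 0.38 with all arrays. MYH9, non-muscle myosin, had 12.31, 12.58, 11.26, 11.45 and 11.86 at 30 µg/mL, against 10.93, 10.94, 10.87 and 10.87 at 0.3 µg/mL. It rose by 0.99 with all arrays (adjusted p = 0.000357), with 0.62 without the pair (adjusted p = 0.125, and 0.00156 without the 9 arrays). Controls 1 to 7 had 11.03 to 11.34 for MYH9, above every array at 0.3 µg/mL. Actin and focal adhesion genes gave 2 higher and 1 lower of 24, the others being ACTB (0.39) and the light chain MYL12A (-0.52), and 0 passed without the pair, while MYL12A passed with MYH9 without the 9 arrays. Matrix genes gave 4 higher, TIMP3 (0.70), LAMA5 (0.79), AGRN (0.53) and NID1 (0.39), and 1 lower, FN1 (-0.24), of 20, and 0 without the pair. Without the 9 arrays 4 were higher, LAMA5 (0.55), TIMP3 (0.44), LAMB1 (0.53) and LAMB2 (0.85). EGR1, an immediate early transcription factor, had 9.68, 9.55, 9.25, 9.60 and 10.40 at 30 µg/mL, against 8.74, 8.83, 9.0 and 8.78 at 0.3 µg/mL, and rose by 0.86 and 0.91 with and without the pair (adjusted p = 0.00189 and 0.0137). Control 8 had 9.43 for EGR1, and controls 1 to 7 spanned 8.68 to 9.79.

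Among the other lists, immediate early and ERK feedback genes gave 2 higher and 1 lower of 24, with SPRY4 (0.64) and SPRY2 (-0.68) beside EGR1. NF-kB and cytokine genes gave 2 higher of 20, TNFAIP3 (0.32) and ICAM1 (0.50). Sterol genes gave 2 higher of 17, LSS (0.48) and STARD4 (0.13), iron genes 2 higher of 14, HAMP and TFR2 (0.38), and fatty acid genes 0 of 19. Proteasome subunits gave 0 higher and 2 lower of 25, PSMC4 and PSMD12 (-0.64), and small nucleolar and nuclear RNAs 0 higher and 2 lower of 19, SNORA12 (-0.66) and SNORD3C (-0.30). EGR1 and PSMC4 of these genes passed without the pair as well, and SPRY2, TNFAIP3, HAMP and PSMD12 besides them passed without all 9 arrays apart (adjusted p = 0.0219, 0.0145, 0.0118 and 0.0402). List members that passed as lower without the pair and not with all arrays, beside BAG3 and NUP62, were ATF6 (-0.32), PSPH (-0.78), ATG4B (-1.29), RN7SK (-0.42) and SNORD13 (-1.20).

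**Figure D4:**
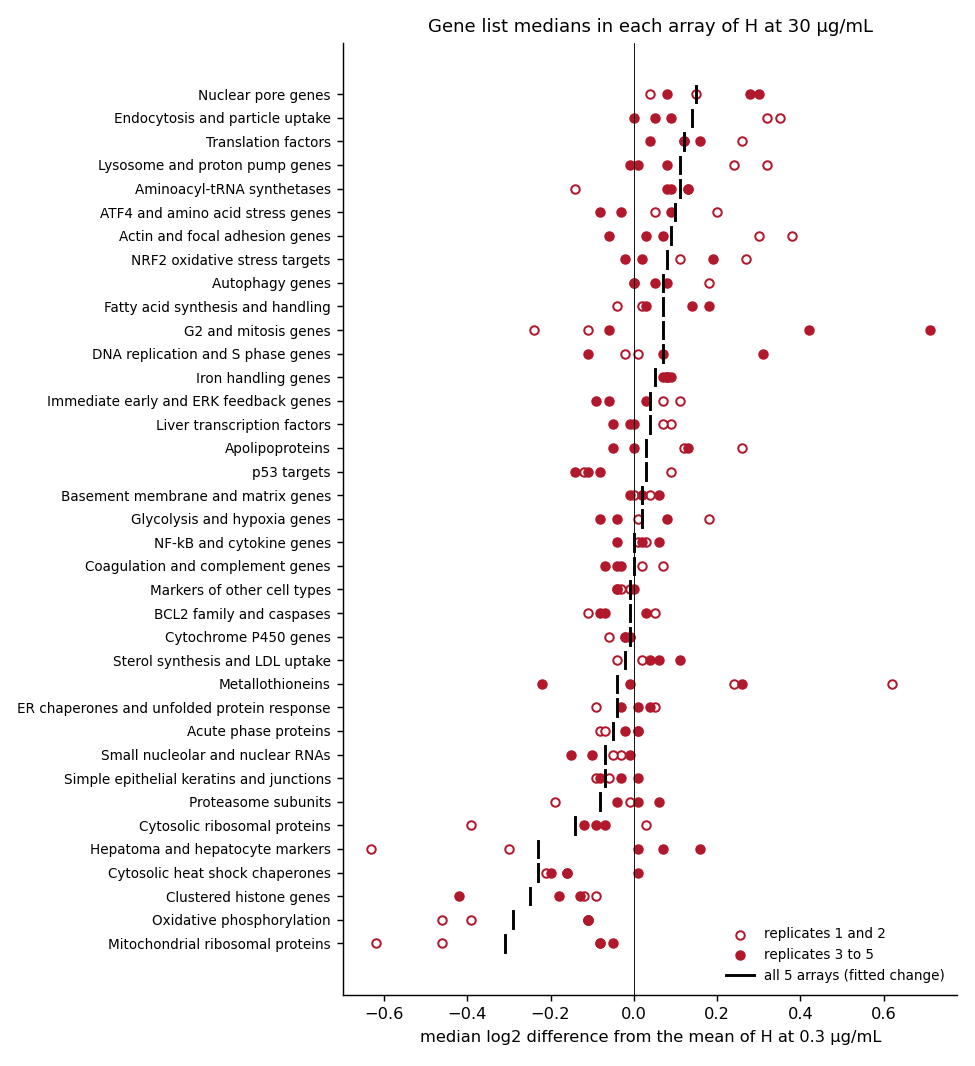
Median log2 difference of each of 37 gene lists (rows) from the mean of H at 0.3 µg/mL (horizontal axis), 1 circle per array of H at 30 µg/mL, open for replicates 1 and 2, with a black bar at the median fitted change of all 5. The open circles carry the low medians of mitochondrial ribosomal proteins (-0.46 and -0.62) and of oxidative phosphorylation (-0.39 and -0.46), and replicates 4 and 5 carry the high medians of mitotic genes (0.42 and 0.71).

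Cell identity was checked with marker lists. The 14 measured hepatoma and hepatocyte markers were all above the array median, with a summed intensity of 66000 to 111000 at 30 µg/mL, 97500 to 111000 without replicates 1 and 2, and 94500 to 99200 at 0.3 µg/mL. Of them 1 was higher, KRT8, and 2 lower, KRT18 and SERPINA1. Of 16 markers of other cell types, 0 were higher and 1 lower, and 8 lay below the array median (PTPRC, PECAM1, VWF, CDH5, COL3A1, CD3E, HBB and KRT5). Their summed intensity was 5650 to 7540 at 30 µg/mL and 8520 to 9600 at 0.3 µg/mL, and the lower one was LYZ, lysozyme. LYZ had 11.05, 11.29, 11.78, 11.05 and 10.67 at 30 µg/mL, against 11.88, 12.30, 12.02 and 12.24 at 0.3 µg/mL, and its 2 probes changed by -0.94 and 0.87. ACTA2, at 11.08 to 11.53 at 30 µg/mL and 11.51 to 11.56 at 0.3 µg/mL, and LYZ were the brightest of the 16 markers. All flasks held the HepG2 line. LYZ passed in the limma test with all arrays (adjusted p = 0.025), and neither without the pair (0.131) nor without the 9 arrays (0.0569). As its 2 probes also went in opposite directions, a fall in LYZ RNA is not established. Bulk RNA could not tell fewer cells expressing it from less RNA in each.

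Over the 95 genes named here by rule, 87 passed with all arrays. Of these, 36 also passed without the pair, 66 without all 9 arrays apart and 54 in the fit of replicates 3 to 5 and the 4 arrays at 0.3 µg/mL alone. The fit of the 9 compared arrays alone kept 25 of the 87 past the threshold. A fit with a block per replicate number and without the pair, chosen after seeing the data, kept 1. Of the 87, 29 had a change smaller by over 1.5 times without the pair. The plot of changes with and without the pair shows HYOU1 near the horizontal axis, CHP1, POLR2J3 and ATG9A between it and the diagonal, and EIF4G1, KRT18 and PSMC4 at or beyond the diagonal.

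**Figure D5:**
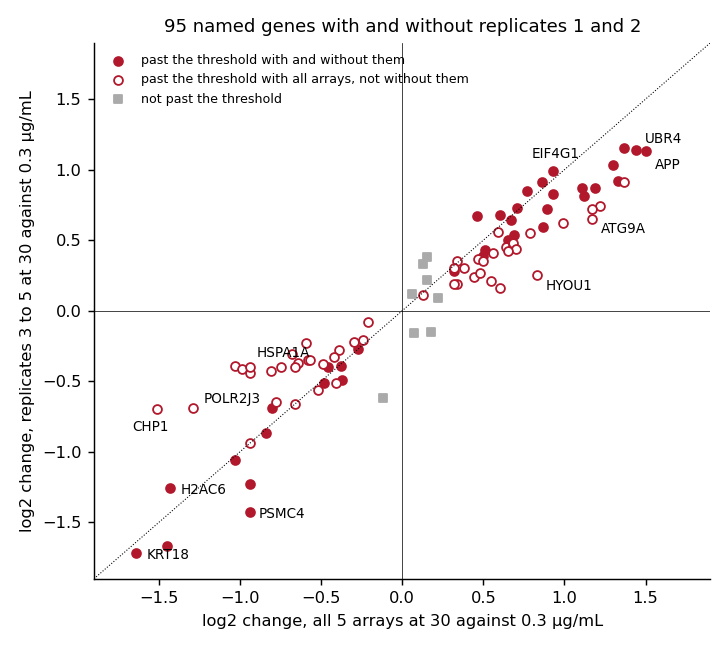
Log2 change at 30 against 0.3 µg/mL of 95 named genes with all 5 arrays (horizontal axis) and with replicates 3 to 5 only (vertical axis), 1 point per gene, filled where the gene passed the threshold both with all arrays and without the pair in the fit that kept the other 7 arrays apart. The 36 filled points lie near the dotted line of equal change and most of the 51 open points lie between it and 0.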

How the data were processed

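Total RNA of HepG2 flasks was read on 120 Illumina HT-12 v4 arrays. The authors made the deposited intensity values with beadarray 2.4.1, as the series text states, under R 2.14.0, per the submitters' processing notes. For background correction, normalization and genome build the sources used here state nothing, and every array has a median intensity of 98.4. The log2 of these values was taken here. The platform annotation pairs 30113 of 48107 probes with 1 symbol, 8 with several and 17986 with none; the brightest probe over all arrays represented each of 20046 genes (6691 with over 1 probe). Groups came from the labels, and 1 array of M whose title and characteristic disagree entered no group.

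Tests used limma 3.58.1 (R 4.3.3), with 1 fit over all 25 groups without covariates, Benjamini-Hochberg adjustment over all genes and a threshold of 0.05. The fit was tried on simulated data with independent noise of 1 spread per gene. It recovered 90 of 100 log2 changes of 0.5 and 98 of 100 of 1, with 8 false calls. The simulation held no arrays apart and no axis dividing arrays, so it does not give the error rate for the arrays here. The flasks are called biological replicates in the series text. Named genes were, among genes past the threshold, the 10 largest rises and falls without overlap between groups, the 8 largest each way that passed with and without replicates 1 and 2, the 2 of smallest p in each of 37 lists (728 of 776 genes measured), and 10 fixed genes; symbols starting LOC were passed over. Further list members past the threshold were named after their values were seen. The comparison, members and lists were chosen with earlier results of these data known. Upstream sequence came from the RefSeq promoter table of GRCh38.p14. Alternatives are given at the end. Tables and plots used Python 3.11.15, pandas 2.3.3, numpy 2.4.6 and matplotlib 3.10.9.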

Additional observations from a re-analysis of the deposited data

Results flagged for a closer look

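In 67 of the 95 named genes, against 4.8% of all genes, the log2 change of H between 30 and 0.3 µg/mL differed from the mean change of the other 7 materials in limma's test of the difference itself. Most of the 95 were named for their change with H, so this count is a description, and it was 62 without all 9 arrays apart. Values are H minus the mean of the others. Among the risers the difference was 1.46 for TRIM71, 1.34 for PRRC2A, 1.33 for APP, 1.29 for CHPF, 1.28 for UBR4, 1.28 for CASC3, 1.23 for DUSP9, 1.16 for STIP1, 1.13 for PLXNB2, 1.13 for ATG9A, 1.08 for ILRUN and 1.06 for SORL1. In the list members that rose it was 0.95 for EIF4G1, 0.90 for NUP210, 0.89 for MYH9, 0.88 for HK2, 0.84 for EGR1, 0.83 for CEBPA, 0.81 for AP2B1, 0.79 for HAMP, 0.78 for SDHC, 0.69 for TIMP3, 0.69 for SRXN1 and 0.67 for TPX2. Smaller positive differences were 0.66 for SCARB1, 0.65 for LAMA5, 0.64 for MCM2, 0.62 for NUP93, 0.60 for HSP90AB1, 0.59 for TXNRD1, 0.51 for BMF, 0.48 for EIF3B, 0.44 for TFR2, 0.43 for MCM4, 0.40 for MARS1, 0.40 for ONECUT1, 0.38 for APOA5, 0.28 for SERPINA3 and 0.14 for STARD4. Among the fallers it was -1.82 for KRT18, -1.53 for RPL21P28, -1.36 for H2AC6, -1.35 for CHP1, -1.14 for POLR2J3, -1.0 for NFX1, -0.91 for RBM4, -0.90 for EIF3CL, -0.77 for ITM2B, -0.76 for CNPY3, -0.74 for RPL23A and -0.70 for PGAM1. The other negative differences were -0.65 for PSMD12, -0.60 for MYL12A, -0.58 for BAX, -0.56 for MRPS18C, -0.54 for RPL19, -0.52 for H4C8, -0.48 for MRPS30, -0.44 for F11, -0.44 for CYP4F3, -0.42 for TPP1, -0.38 for RPL3, -0.37 for TIGAR, -0.33 for ATP5MC3, -0.28 for CYP2J2, -0.25 for MBL2 and -0.22 for CASP8.

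Single arrays stood far from the rest of their group in 26 of 285 groups of H arrays examined, where chance gives about 1 in 20 for independent groups. The groups are the same H arrays in 95 genes and are not independent, so that rate is no measure of the 26. Replicate 1 at 3 µg/mL was the one in 12 of them, with log2 intensities of 7.33 for APP, 8.69 for UBR4, 8.33 for PRRC2A, 8.23 for TRIM71, 8.61 for CASC3, 7.48 for ILRUN, 7.58 for TIMP3 and 10.30 for MARS1 below the other 4 arrays, and of 8.68 for KRT18, 10.69 for RPL21P28, 9.24 for BAX and 7.33 for F11 above them. Replicate 2 at 3 µg/mL was high in MCM2 (8.80) and TPX2 (8.96), and replicate 3 was low in MBL2 (6.95) and high in SNORD3C (7.18). At 30 µg/mL the arrays apart were replicate 2 in BECN1 (7.06), replicate 3 in H2AC6 (8.65), replicate 4 in STARD4 (6.49) and replicate 5 in FARSB (12.49). At 0.3 µg/mL replicate 3 was apart in RBM4 (10.07), MT2A (11.74), CEBPA (10.17) and MT1X (9.63), and replicate 4 in MARS1 (10.23) and CYP4F3 (7.95).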

How the results depend on the processing

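The 1602 genes past the threshold (979 higher, 623 lower) depended on which arrays entered. They numbered 396 (206 higher, 190 lower) without replicates 1 and 2 at 30 µg/mL, 1105 with 549 higher without the 9 arrays apart, and 739 to 2491 (higher 440 to 1450, lower 299 to 1041) with 1 array left out. Leaving out replicate 1 or 2 at 30 µg/mL lowered the count to 924 (549 higher, 375 lower) or 739 (440 and 299), and leaving out replicate 3 or 4 at 0.3 µg/mL to 996 (593 and 403) or 1015 (648 and 367), while leaving out replicate 3 at 30 µg/mL gave 2491 with 1041 lower. A fit of the 9 arrays alone gave 293 (155 and 138), that of replicates 3 to 5 and the 4 at 0.3 µg/mL gave 1268 (640 and 628), blocks of 12 arrays in order of deposit 634 (431 and 203), every probe 2577 with 1238 lower, and a 1.5-fold minimum 413 (282 and 131). Deviations from the group mean had r of 0.30, -0.20, -0.08 and -0.09 between same-numbered arrays at 30 and 0.3 µg/mL. This cannot decide whether the numbers pair the flasks, since replicates 1 and 2, which stand apart, enter every deviation at 30 µg/mL. A replicate block over the H arrays gave 1732. The same block without replicates 1 and 2, chosen after seeing the data, gave 9 (4 higher, 5 lower).

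For 3 against 0.3 µg/mL the 341 moved to 370 at most with 1 array left out. They became 1087 without the 9 arrays apart, 133 to 205 with 1 array at 0.3 µg/mL left out (205, 162, 150 and 133 without replicates 1 to 4), 175 with blocks of 12, 617 by probe and 75 with the fold minimum. The 962 that differed from the other materials became 217 without replicates 1 and 2, 836 without the 9 arrays apart, 429 to 1523 with 1 array left out (583, 429 and 1523 without replicates 1, 2 and 3 at 30 µg/mL, 582 without replicate 4 at 0.3 µg/mL), 459 with blocks of 12, 1483 by probe, 295 with the fold minimum and 9 with the block without replicates 1 and 2.

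Medians of gene lists moved by more than the spread between the 30 µg/mL arrays in 42 repeats and not in 735. Called named genes reversed in 0 of 1999 repeats and lost the threshold in 470. Among those that did not pass, HMOX1 was -0.16 without replicates 1 and 2, without the 9 arrays and in the fit of replicates 3 to 5 alone, -0.09 with the block, -0.04 with blocks of 12, and -0.02 to 0.17 with 1 array left out (-0.01, -0.02 and 0 without replicate 1 or 2 at 30 µg/mL or 4 at 0.3 µg/mL). MT1X ran from -0.39 to 0.07 with 1 array left out, with 0.02 and 0.07 without replicate 3 or 4 at 30 µg/mL, CDKN1A was -0.15 in the first 3 of these settings and -0.20 with the block, and ALB was -0.04 as the mean of its probes. The cause was not tested. Dim genes near the array median of 6.62, such as H4C8 and HSF1, have little signal over background.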
